A study of Vigna unguiculata with 30 samples.

Results

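Leaves at the bottom of a cowpea canopy were compared between developmental stages R3 and R1, 1 week apart. Members were chosen by sample title: 5 libraries of bottom leaves at R3 (week 6.5 from planting) and 5 of bottom leaves at R1 (week 5.5), 10 of the 30 libraries in the series. The other 20 libraries came from middle and top leaves at the same stages, 5 per group. All plants were of the genotype IT97K-499-35 (cowpea, Vigna unguiculata, a grain legume), rooted in greenhouse soil with added lighting, with no treatment or mutation named in any group. Tissue was leaf punches, and libraries were made from polyA RNA. The labels call the replicates biological and do not say whether each is its own plant, so p-values measure the spread between these samples. Every R3 library was also taken a week after every R1 library, so stage and sampling time cannot be told apart.

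In the staging used for grain legumes, the R stages are the reproductive ones, R1 being the start of flowering and R3 the start of pod growth. The lowest leaves of a canopy are usually the oldest and the most shaded. In legumes, such leaves are known to export nitrogen and carbon to growing pods as they age, while their photosynthetic proteins are broken down. None of this was measured here.

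The 10 bottom libraries held 11.5 to 17.4 M counts (M, mega), with 22134 to 23179 gene models detected in each. Total counts, detected gene models, the TMM scaling factor and the share of the 10 most abundant gene models did not pass a test between R3 and R1 (exact permutation tests, two-sided, adjusted p from 0.604 to 0.762). That share was 5.96% ± 1.12 at R3 and 6.25% ± 0.942 at R1 (SD, n = 5 each). Levels are given as CPM, that is counts per M counts, after scaling each library by TMM (trimmed mean of M values). The deposited tables carry gene identifiers without product names, and 0 of 31948 gene models matched the RefSeq table used here. Pathways and cell types, and the leaf identity of the punches, could therefore not be checked against marker genes. Gene models are described by identifier, position, structure and level, in the coordinates of the deposited table; the sources used here do not name its genome build.

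Bottom leaves changed in about as many gene models upward as downward between the stages. Of 20284 gene models tested, 3295 (16.2%) were called at an adjusted p under 0.05 (edgeR quasi-likelihood test, Benjamini-Hochberg). At R3, 1564 of them rose (7.71% of those tested) and 1731 fell (8.53%). A change of 2-fold or more was met by 1506 (7.42%), of which 834 rose (4.11%) and 672 fell (3.31%). This order turned round under library size alone (654 risen, 678 fallen), a replicate block (667 and 726) and in the 10 bottom libraries alone (301 and 339). It also turned round without R3 replicates 1 and 4 (642 and 659, 412 and 466) and without R1 replicates 1 and 3 (380 and 489, 626 and 734). The median log2 fold change was 1.08 among those that rose and -0.87 among those that fell, against 0.00 over all gene models tested. In bulk tissue, fewer cells of a type and less RNA per cell cannot be told apart.

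**Figure D1:**
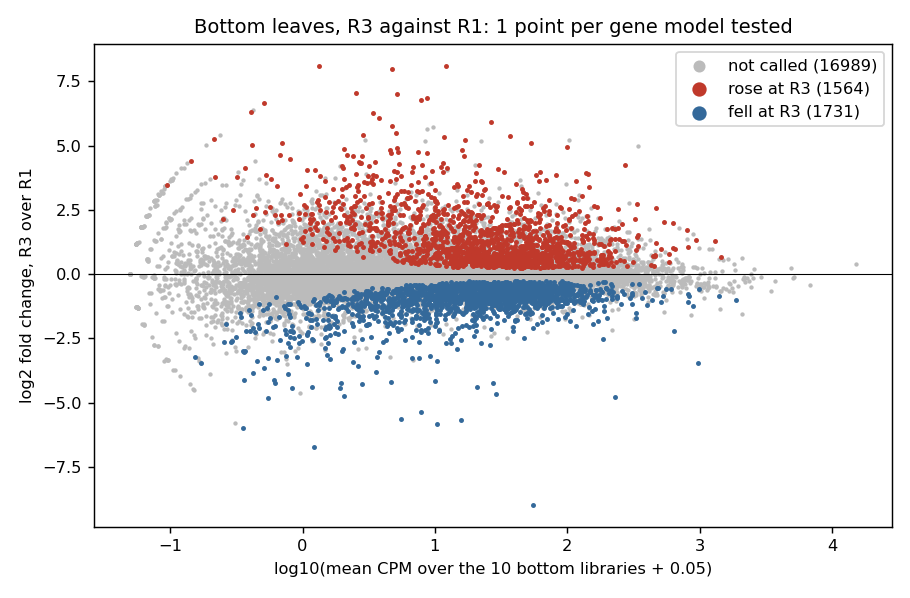
Each point is 1 gene model tested, with its mean level over the 10 bottom libraries on the horizontal axis (log10 CPM) and its log2 fold change, R3 over R1, on the vertical axis. Red points (1564) rose and blue points (1731) fell at an adjusted p under 0.05.

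The size of this set rested on single libraries. Without R3 replicate 4 it was 1834 gene models, without R3 replicate 5 it was 2180, and without R1 replicates 1 and 4 it was 1804 and 1865. A fit of the 10 bottom libraries alone called 1091. The same fit with replicate number as a block called 0, including 0 of the 4 gene models given as examples (4330 at an unadjusted p under 0.05, edgeR). The labels do not say whether the numbers pair the stages. With all 30 libraries, scaling by library size alone gave 986 that rose and 1675 that fell. Over the 10 fits that leave out 1 bottom library each, 1285 of the 3295 were called every time in the same direction, 488 that rose and 797 that fell. Only 1 of the 3295 was called in none of those fits.

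The first principal component of the 10 bottom libraries held 36.3% of their variance. R3 libraries scored 30.4, -14.6, 45.9, 106 and 71.8 on it (replicates 1 to 5), and R1 libraries scored -84.4, -16.7, -58.3, -53.6 and -26.8. The stages did not overlap on this component, but R3 replicate 2 lay beside R1 replicate 2. Without R3 replicate 2 the count was 3993. The second component held 22.6% and did not separate the stages.

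**Figure D2:**
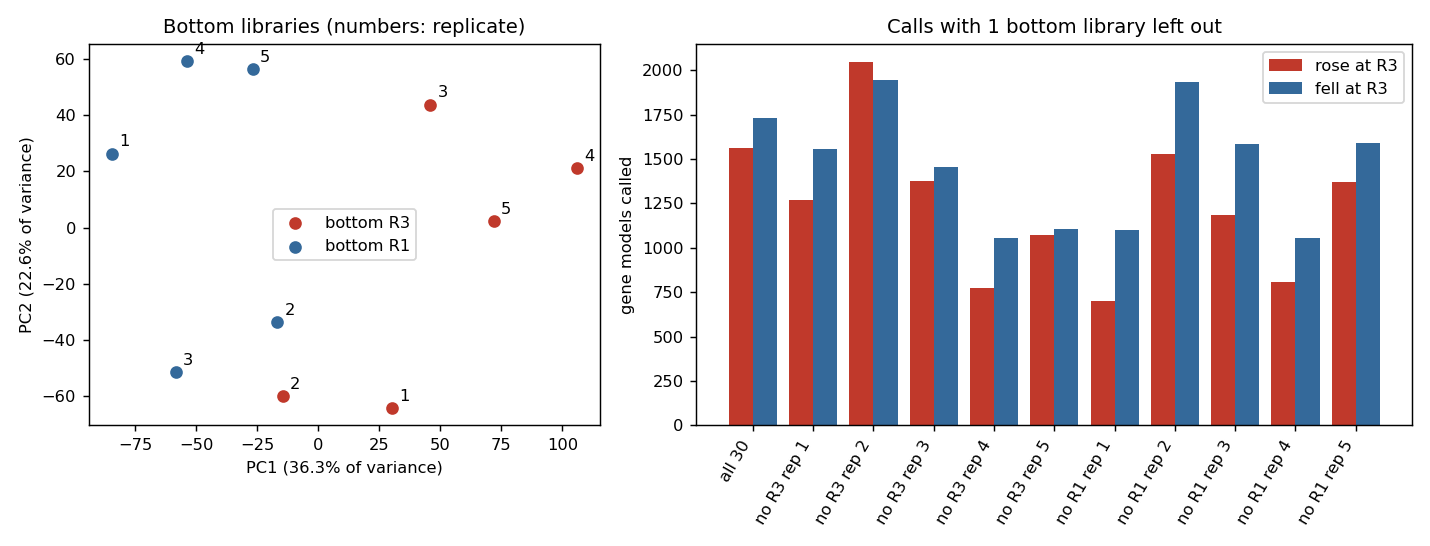
Left, the 10 bottom libraries on the first and second principal components of log2 CPM, R3 in red and R1 in blue, numbered by replicate. Right, the number of gene models that rose (red) or fell (blue) in the fit of all 30 libraries and with each bottom library left out; the total runs from 1804 to 3993.

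Ranges of CPM that do not overlap between 5 R3 and 5 R1 libraries were found for 1654 gene models (8.15% of those tested), 777 higher (3.83%) and 877 lower (4.32%) at R3. Of the 3295 called, 1288 had such ranges, 563 that rose and 725 that fell, and in 2007 the ranges overlapped. The extremes among the called gene models with ranges apart and a mean of at least 5 CPM (1082 gene models) were taken as examples, 2 in each direction. Their separate ranges and large differences in bottom leaves follow from this choice, so the values below describe them and are no test. Each reached that mean through its higher stage.

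Vigun07g048300 (chromosome 7, 4991387 to 4992335, minus strand, 1 exon) was near silent at R1 and present at R3. It stood at 7.08, 0.414, 12.4, 18.8 and 12.5 CPM in R3 bottom libraries and at 0.0829, 0, 0, 0.231 and 0.0526 CPM in R1 bottom libraries (replicates 1 to 5). Every R3 library lay above every R1 library, with R3 replicate 2 far below the other R3 libraries. The R1 values rest on 5 counts over 5 libraries, against 835 at R3. The log2 fold change was 7.02 (SE 0.98, edgeR adjusted p = 0.000131). With 1 bottom library left out it ran from 6.68 (no R3 replicate 4) to 7.91 (no R1 replicate 4).

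Vigun08g105100 (chromosome 8, 26150815 to 26154154, plus strand, 4 exons) reached higher levels. It stood at 146, 31.8, 72, 108 and 156 CPM in R3 bottom libraries and at 0, 11, 2.04, 0.462 and 1 CPM in R1 bottom libraries. R3 replicate 2 was the lowest of its group and R1 replicate 2 the highest of its own, without overlap. The log2 fold change was 5.12 (SE 1.05, edgeR adjusted p = 0.00258). With 1 bottom library left out it ran from 4.81 (no R1 replicate 1) to 6.84 (no R1 replicate 2).

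Vigun06g170200 (chromosome 6, 29178381 to 29186779, plus strand, 18 exon blocks after merging overlapping exons) showed the largest fall under this choice. It stood at 0.411, 0.931, 0, 0.204 and 0.141 CPM in R3 bottom libraries and at 45.3, 25.2, 12.7, 16.5 and 1.37 CPM in R1 bottom libraries. All R3 libraries were under 1 CPM, and R1 replicate 5 came closest to them. The log2 fold change was -5.83 (SE 1.08, edgeR adjusted p = 0.00126). With 1 bottom library left out it ran from -5.30 (no R1 replicate 1) to -6.72 (no R3 replicate 2).

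Vigun05g237800 (chromosome 5, 43087711 to 43093343, plus strand, 10 exons) stood at 0.165, 0.207, 1.08, 1.22 and 0.212 CPM in R3 bottom libraries and at 41.2, 99.8, 5.06, 5.23 and 1.68 CPM in R1 bottom libraries. R1 replicates 1 and 2 carried most of its R1 level, and the ranges did not overlap. The log2 fold change was -5.65 (SE 1.35, edgeR adjusted p = 0.00699), and -4.44 without R1 replicate 2.

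The same gene models were read in middle and top leaves. Vigun07g048300 reached at most 1.68 CPM in middle and 1.34 CPM in top libraries at R3, and at most 0.0854 and 0.0941 CPM there at R1. Its log2 fold changes there were 4.41 and 4.04, and both just missed the threshold (edgeR adjusted p = 0.0514 and 0.0609). Vigun08g105100 was also called between the stages in middle leaves (log2 fold change 6.39, edgeR adjusted p = 0.024), at 6.33 ± 5.88 CPM at R3 and 0.0671 ± 0.111 CPM at R1. There its ranges overlapped (0 to 13.9 CPM at R3, 0 to 0.256 CPM at R1). In top leaves its log2 fold change was 3.08 (adjusted p = 0.329). Vigun06g170200 was called in middle leaves as well (-5.63, adjusted p = 0.0159), at 0.101 ± 0.116 CPM at R3 and 5.85 ± 6.92 CPM at R1. Its ranges overlapped there too (0 to 0.278 CPM at R3, 0 to 14.1 CPM at R1). In top leaves it stayed under 0.2 CPM in every library of both stages. Vigun05g237800 was abundant in top leaves at both stages, 69.6 ± 112 CPM at R3 and 60.8 ± 62.8 CPM at R1, where its log2 fold change was 0.19 (adjusted p = 0.955). In middle leaves its log2 fold change was -3.0 (adjusted p = 0.161). For each of the 4, the test of the bottom stage difference against the mean of middle and top leaves missed the threshold (edgeR interaction, adjusted p from 0.275 to 0.979).

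**Figure D3:**
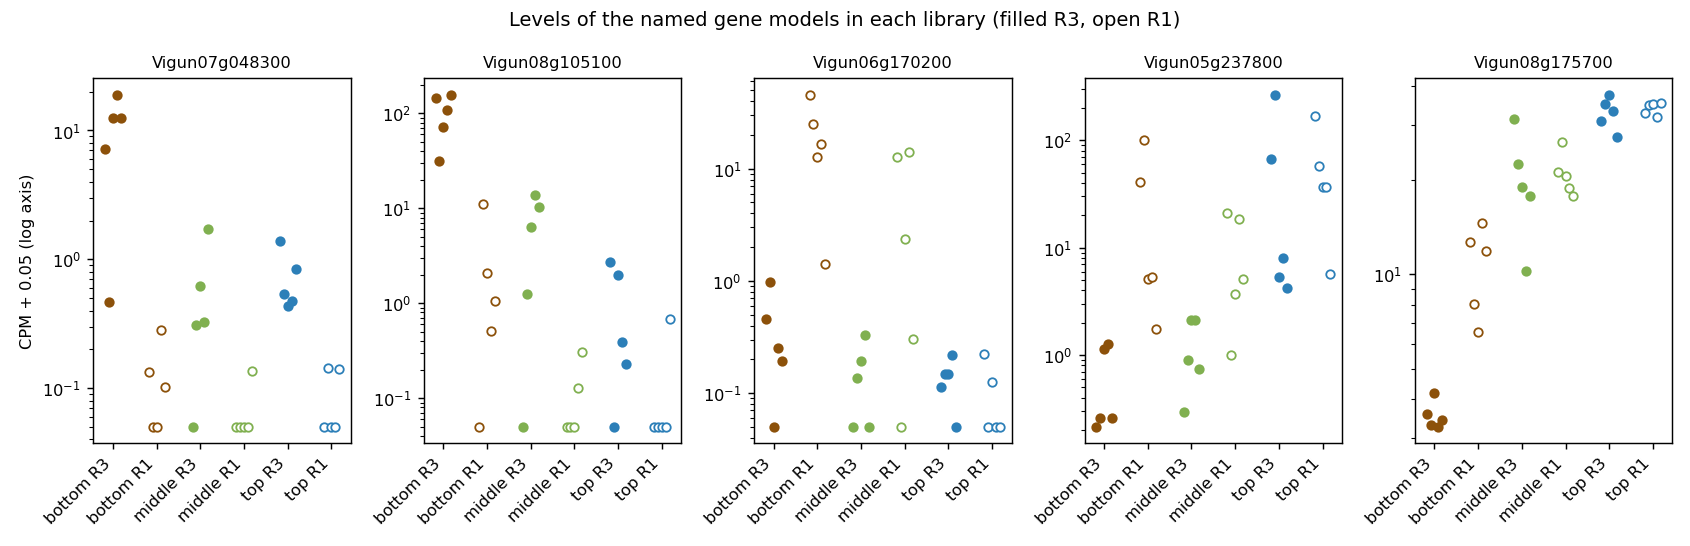
CPM plus 0.05 on a log axis for 5 gene models in each of the 30 libraries, filled points R3 and open points R1, in bottom (brown), middle (green) and top (blue) leaves. The first 4 panels are the largest rises and falls in bottom leaves among called gene models with ranges apart and a mean of at least 5 CPM; in the fifth, bottom R3 libraries lie between 3.21 and 4.14 CPM, below every other library.

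Whether the stage difference of bottom leaves was particular to them was tested as an interaction. Against the mean of middle and top leaves, 1 gene model (0.00493%) was called by edgeR and 215 by DESeq2, with 2261 (11.1%) at an unadjusted p under 0.05 in edgeR. Against top leaves alone edgeR called 0 (3089, or 15.2%, at an unadjusted p under 0.05) and DESeq2 470. Against middle leaves alone edgeR called 0 (927, or 4.57%, at an unadjusted p under 0.05) and DESeq2 6. In simulated counts, changes were put into R3 bottom libraries alone. The edgeR test against both other positions then called 5 of 50 at 2-fold, 35 of 50 at 4-fold and 49 of 50 at 8-fold. So few edgeR calls do not show that differences particular to bottom leaves are absent. Without R1 replicate 2 the edgeR counts were 152 against both and 305 against top leaves. Against top leaves they were 25 without R3 replicate 2 and 11 without R1 replicate 3, and from 0 to 2 without any other bottom library. With replicate number as a block within each stage, a fit chosen after seeing the data, the edgeR counts were 2 against both, 51 against top leaves and 0 against middle leaves. The stage test called 504 gene models (2.48%) in middle leaves and 316 (1.56%) in top leaves, against 3295 in bottom leaves. The difference between these counts was not itself tested. The median SD of log2 CPM within a group was 0.36 in bottom leaves at R3 and 0.358 at R1, against 0.325 and 0.291 in middle leaves and 0.444 and 0.298 in top leaves.

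The gene model called by edgeR was Vigun08g175700 (chromosome 8, 34601667 to 34604041, minus strand, 4 exons). Chosen after its values were seen, it stood at 3.54, 3.26, 4.14, 3.21 and 3.39 CPM in R3 bottom libraries and at 12.7, 8, 6.49, 14.5 and 11.8 CPM in R1 bottom libraries. The stages were apart in bottom leaves, and the fitted difference was -1.61 on the log2 scale (SE 0.22, edgeR adjusted p = 0.000115). In middle leaves it was at 20.1 ± 7.69 CPM at R3 and 20.9 ± 3.33 CPM at R1, and in top leaves at 32.8 ± 3.8 and 33.9 ± 1.58 CPM. The difference of stage differences was -1.56 on the log2 scale (edgeR adjusted p = 0.0418), and -1.51 with a block within stage (adjusted p = 0.058). This call lies at the threshold: it ended in 7 of the 10 fits that leave out a bottom library, where its adjusted p ran from 0.00582 to 0.162. It ended without R1 replicates 1, 4 and 5 (0.162, 0.0973 and 0.101) and without R3 replicates 1, 2, 4 and 5 (0.13, 0.0842, 0.0595 and 0.152).

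Middle and top libraries were not used in the bottom contrast, although filter, scaling and dispersion were set over all 30 libraries together. They may still share plants with it, which the labels do not say. Across the 20284 gene models, deviations of same-numbered bottom and middle libraries from their group means correlated by 0.0481 to 0.457 at R3 and by 0.185 to 0.524 at R1. At R1 each of the 5 bottom libraries correlated best with the middle library of its own number, and at R3 2 of 5 did. Between bottom and top the range was -0.109 to 0.119 at R3 and -0.166 to 0.158 at R1. The bottom and middle values that follow may therefore not be independent of each other. Of the 1564 that rose in bottom leaves, 94.8% had a positive log2 fold change in middle leaves (median 0.55) and 75.8% in top leaves (median 0.22). Of the 1731 that fell, 97.2% had a negative one in middle leaves (median -0.45) and 76.6% in top leaves (median -0.24). Over all gene models tested, 48.8% were positive in middle and 49.9% in top leaves. The stage test passed in middle leaves for 153 of those that rose and 199 of those that fell, and in top leaves for 48 and 77. No gene model was called in opposite directions in bottom leaves and in either other position. At all 3 positions 34 rose and 57 fell.

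Gene models chosen in middle or top leaves were then followed into bottom leaves. Of 216 that rose in middle leaves (1.06% of those tested), 153 (70.8%) also rose in bottom leaves, against 7.71% of all tested. Of 288 that fell in middle leaves (1.42%), 199 (69.1%) fell in bottom leaves, against 8.53% of all tested. Of 162 that rose in top leaves (0.799%), 48 (29.6%) rose in bottom leaves, and of 154 that fell there (0.759%), 77 (50%) fell. Across the 20284 gene models, the log2 fold changes of bottom leaves had Pearson's r = 0.61 with those of middle leaves and 0.21 with those of top leaves (Spearman's rho 0.65 and 0.3). These are descriptions over gene models of 1 fit, which are not independent replicates.

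As a share of all counts, gene models that rose in bottom leaves took 11.1% ± 2.16 of a bottom library at R3 and 5.46% ± 0.976 at R1 (SD, n = 5), values that chose them and so are no test. In middle leaves, whose libraries were not used in the choice, they took 6.67% ± 2.04 at R3 and 4.29% ± 0.771 at R1. In top leaves they took 5.01% ± 0.762 at R3 and 4.46% ± 0.524 at R1. For these gene models the stages overlapped in middle leaves (4.37% to 9.86% at R3, 3.45% to 5.45% at R1). They also overlapped in top leaves (4.08% to 5.93% at R3, 3.77% to 4.95% at R1). Those that fell took 5.64% ± 0.674 of a bottom library at R3 and 10.4% ± 1.19 at R1. In middle leaves they took 8.66% ± 1.22 at R3 and 11.7% ± 0.909 at R1, with the highest R3 library (10.3%) under the lowest R1 library (10.6%). In top leaves they took 10.3% ± 0.67 at R3 and 12.4% ± 0.482 at R1, again without overlap (highest R3 library 11.4%, lowest R1 library 12%).

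**Figure D4:**
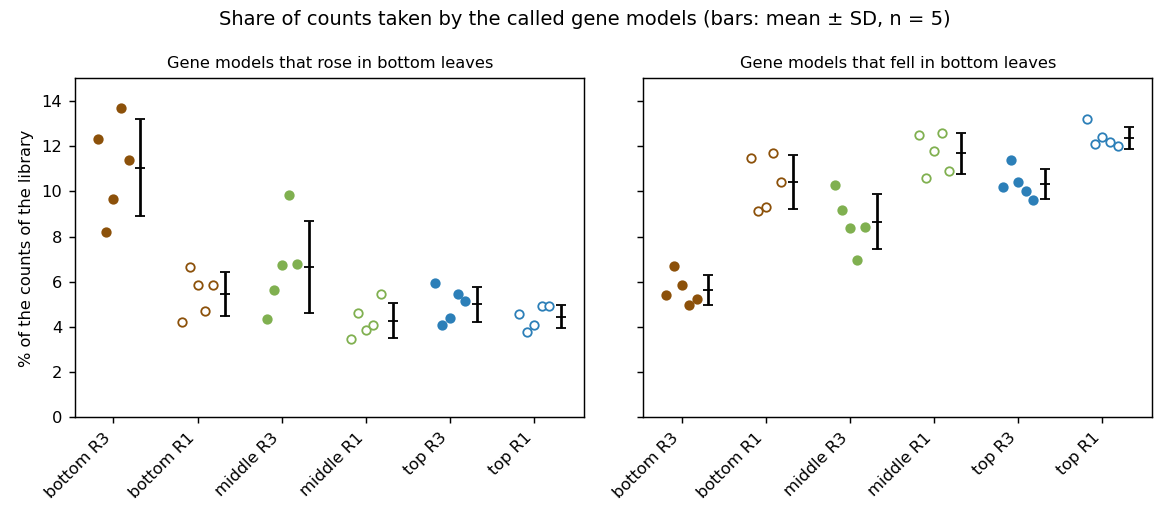
Percent of the counts of each library taken by the 1564 gene models that rose (left) and the 1731 that fell (right) in bottom leaves, filled points R3 and open points R1, bars mean ± SD (n = 5). Bottom libraries chose these gene models. In middle and top libraries the R3 mean is above the R1 mean on the left, with overlap of the stages, and below it on the right, without overlap.

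The stage difference of bottom leaves was also set against the step from middle to top leaves, which uses none of the bottom libraries but may share plants with them. Of 971 gene models higher in top than in middle leaves at R3 (4.79% of those tested), 175 (18%) fell in bottom leaves and 8 (0.824%) rose, and their median log2 fold change in bottom leaves was -0.39. Of 317 lower in top than in middle leaves at R3 (1.56%), 68 (21.5%) rose and 2 (0.631%) fell, with a median of 0.28. The background over all tested was 7.71% risen and 8.53% fallen. At R1 this relation was not seen: of 1379 higher in top leaves (6.8%), 64 (4.64%) rose and 84 (6.09%) fell in bottom leaves, and of 944 lower (4.65%), 39 (4.13%) rose and 55 (5.83%) fell. Across gene models, Pearson's r between the bottom stage difference and the top to middle difference was -0.25 at R3 and 0.03 at R1. By construction, the top to middle difference at R3 is that at R1 plus the top stage difference minus the middle one. The bottom stage difference had r = 0.61 with the middle one and 0.21 with the top one. The relation at R3 is therefore not separate from these correlations.

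Among gene models with many exons more fell than rose, while among those with 1 exon more rose than fell. Of 641 tested gene models with 20 or more exon blocks, 10 rose (1.56%) and 92 fell (14.4%), against 7.71% and 8.53% of all tested. Of 2675 with a single block, 268 rose (10%) and 176 fell (6.58%). By block number, the classes between went in order, with 8.3% risen and 7.89% fallen at 2 to 4 blocks, 7.8% and 8.63% at 5 to 9, and 5.79% and 10% at 10 to 19. By summed exon length, 147 of 3875 gene models of 3 kb and over rose (3.79%) and 455 fell (11.7%). The share that rose was 7.8% at 2 to 3 kb, highest at 1 to 2 kb (9.7%) and 7.25% under 1 kb, so it did not follow length in order. The share that fell was 8.67%, 7.9% and 5.34% in these classes. Of the 641 gene models with 20 or more blocks, 537 were of 3 kb and over (5 rose, 81 fell). The 104 under 3 kb gave 5 risen and 11 fallen (median log2 fold change -0.06). Of 203 single-block gene models of 3 kb and over, 19 rose and 23 fell, against 249 and 153 of 2472 under 3 kb. Block number and length were thus not told apart. These classes were formed after earlier results of the series were known, and gene models of a class are not replicates.

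More fell than rose among gene models with 20 or more blocks at each level. Under 5 CPM per kb of exon, 21 of 204 fell and 2 rose. At 5 to 20, 53 of 328 fell and 4 rose, and at 20 and over 18 of 109 and 4. Over all gene models tested, more fell than rose at each level too. There 3.49% fell and 3.34% rose under 1, 7.7% and 6.79% at 1 to 5, and 9.13% and 8.64% at 5 to 20. At 20 to 100 it was 11% and 10.2%, and at 100 and over 11.1% and 6.46%. The shift of many-block gene models was small, a median log2 fold change of -0.15 against 0.08 for single-block gene models, and -0.17 and 0.06 when scaled by library size alone. Without 1 bottom library the many-block counts ran from 4 to 18 risen and from 54 to 106 fallen, lowest without R1 replicates 1 and 4 and R3 replicates 4 and 5 (56, 59, 55 and 54 fallen). Risen many-block counts were 4, 4, 4 and 6 without those libraries and 18 without R3 replicate 2. Single-block counts ran from 117 to 347 risen and from 100 to 216 fallen, with the lowest risen counts without R1 replicates 1, 3 and 4 and R3 replicate 4 (117, 173, 139 and 126). The fallen ones were 116, 108, 100 and 113 without R1 replicates 1 and 4 and R3 replicates 4 and 5. More single-block gene models rose than fell in each of these fits. Of the same 641, 1 rose and 52 fell in middle leaves (median -0.23), and 1 rose and 28 fell in top leaves (median -0.24). The 2675 single-block gene models gave 26 risen and 26 fallen in middle leaves, and 28 and 12 in top leaves. Over all gene models tested, 1.06% rose and 1.42% fell in middle leaves, and 0.799% and 0.759% in top leaves. The class median of centred log2 CPM, many-block minus single-block, was 0.03, 0.07, -0.21, -0.05 and 0.01 in R3 bottom libraries and 0.21, 0.13, 0.22, 0.11 and 0.01 in R1 bottom libraries. These ranges overlap. RNA quality values are not in the sources used here, and their part in this pattern was not tested.

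**Figure D5:**
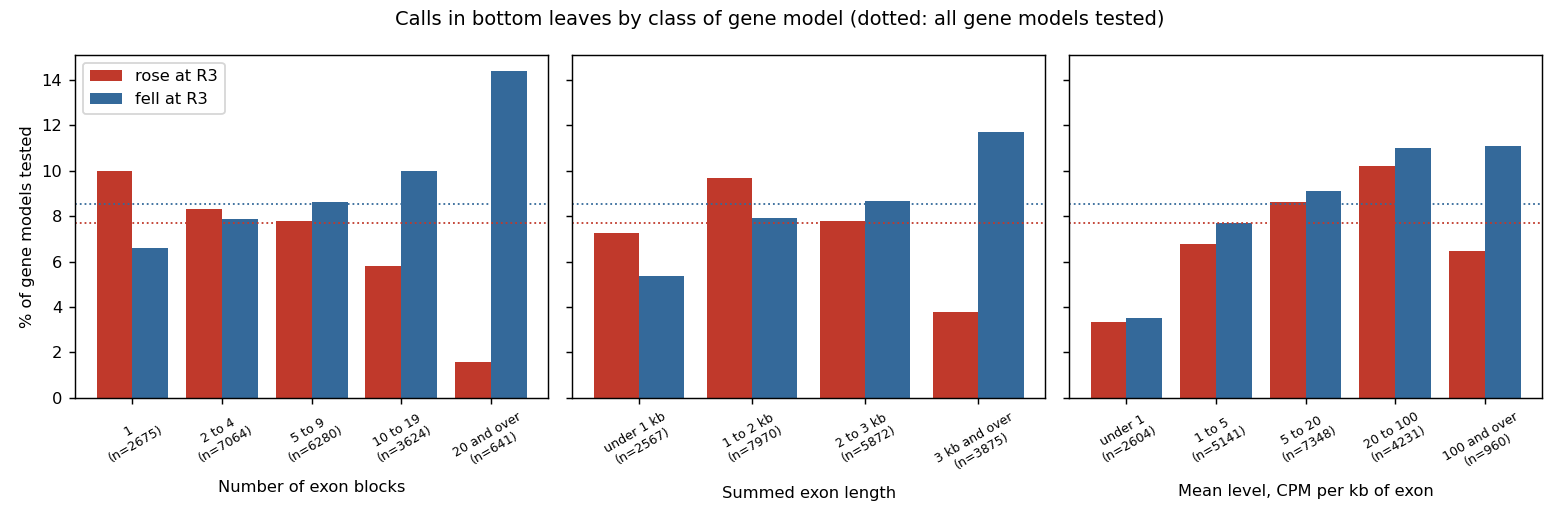
Percent of tested gene models that rose (red) or fell (blue) at R3 in bottom leaves, by number of exon blocks (left), summed exon length (centre) and mean level over 30 libraries (right), with the number tested in each class and dotted lines for all tested. The red bars shrink to 1.56% and the blue bars grow to 14.4% at 20 or more exon blocks.

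The share called also followed level, measured per length as CPM per kb of exon over the 30 libraries. It was 6.84% under 1, 14.5% at 1 to 5, 17.8% at 5 to 20, 21.2% at 20 to 100 and 17.6% at 100 and over. Among the 960 most abundant, of 100 CPM per kb and over, 62 rose (6.46%) and 107 fell (11.1%), against 7.71% and 8.53% of all tested. At least 2-fold were 22 and 38 of them, where 4.11% and 3.31% of all tested were. The median log2 fold change of the 960 was -0.10. Low counts give less precision, so the low share under 1 CPM per kb does not show that such gene models changed less often. Over both stages 24059 gene models had a count in bottom leaves, with 1291 more seen at R3 alone and 779 at R1 alone. Here 1 count in any library of a stage was enough, and R3 libraries averaged 14710000 counts against 13230000 at R1. Of 31948 gene models, only 9 were at 0 in all 5 R1 libraries and above 0 in all 5 R3 libraries, and 2 the reverse. The 9 summed to 10 to 107 counts over the R3 libraries (median 12), and 0 of them passed the filter for testing. The 2 summed to 15 and 41 counts over the R1 libraries, and 1 of them was called.

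By position in the genome, the share called varied little, between 15.2% on chromosome 11 and 17.8% on chromosome 4. Of the 221 tested gene models on unplaced contigs, 6 were called (2.71%), 1 that rose and 5 that fell. They are also of low level, with a median of 3.34 CPM per kb against 7.98 over all tested. Among all gene models tested at 1 to 5 CPM per kb, 14.5% were called. The reason for the low share on contigs was not tested. The next tested gene model along a chromosome had risen too for 140 of 1562 that rose (8.96%, against 7.79% of all on chromosomes), and had fallen too for 189 of 1726 that fell (11%, against 8.6%).

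The longest run of neighbouring tested gene models called in 1 direction lay on chromosome 8, from 22845497 to 23068239 (223 kb), and was singled out after its values were seen. Its 5 gene models, all on the plus strand, had log2 fold changes from 2.60 to 5.49 (edgeR adjusted p from 0.0078 to 0.027). Together they stood at 54.2, 8.58, 30.8, 230 and 63.8 CPM in R3 bottom libraries and at 4.73, 8.86, 3.93, 7.47 and 9.32 CPM in R1 bottom libraries. R3 replicate 4 stood far above the rest, and R3 replicate 2 lay within the R1 range. Without R3 replicate 4, 2 of the 5 were called, and 2 also in a fit of the 10 bottom libraries alone. In middle leaves the sum was 5.61 to 62.9 CPM at R3 and 2.1 to 17.8 CPM at R1, where 0 of the 5 passed the edgeR stage test. Whether they are near copies that share reads is not known from the files.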

How the data were processed

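Per the submitters' processing notes, HISAT2, featureCounts and DESeq2 were used; the sources used here give no versions, genome build or strand setting. The authors deposited raw counts per gene model and a table of counts divided by 1 size factor per library, a normalized signal that was not tested here. All tests used the deposited raw counts. Value columns were matched to samples by library number, with 0 left over.

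Gene models were filtered with filterByExpr by group (20284 of 31948 kept), scaled by TMM and fitted with edgeR 4.0.16 (R 4.3.3; glmQLFit and glmQLFTest with trended dispersion) as 1 model of 6 groups, leaving 24 residual degrees of freedom. Calls were made at an adjusted p under 0.05 (Benjamini-Hochberg over all tested). SEs were derived from each log2 fold change and its quasi-likelihood F. Log2 CPM used a prior count of 2. Exon blocks are the exons of a gene model with overlapping ones merged. Exons of 797 tested gene models overlap another model; none of the named ones does. The 20 pairs of bottom libraries within groups gave a chi-square of 31.8 to 160 per degree of freedom, far above sampling noise, and each library counted as 1 replicate.

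Groups and lists were chosen with earlier results of these data known. Without product names the drawn-up gene lists could not be applied, and the RefSeq table (assembly ASM411807v2) gives neither strand nor product, so no match by position was made. Named gene models were the 2 largest rises and 2 largest falls among called gene models whose stage ranges were apart and whose bottom mean reached 5 CPM; the interaction call and the run on chromosome 8 were added after their values were seen. The script was tested on simulated data. Alternatives were DESeq2 size factors, library size alone, no filter, a replicate block, the 10 bottom libraries alone, DESeq2 1.42.0 and each bottom library left out; a replicate block within each stage was added after seeing the data.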

Additional observations from a re-analysis of the deposited data

Results flagged for a closer look

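Of 64 sets of 5 libraries examined, 9 held a library whose gap to its nearest neighbour exceeded 0.71 of the range of its set. About 1 in 20 sets of normally distributed values would do so by chance. Some of these sets are CPM values near 0, to which that rate does not apply, so the 9 were not compared with chance. In R1 bottom leaves, Vigun08g105100 was at 11 CPM in 1 library (replicate 2), and 1 library (replicate 5) held 17.4 M counts. In R3 bottom leaves, the run of 5 gene models on chromosome 8 summed to 230 CPM in replicate 4, and that run was at 12.3 CPM in 1 top R1 library. Vigun05g237800 was at 264 CPM in 1 top R3 library. Vigun07g048300 was at 0.0854 CPM in 1 middle R1 library and Vigun08g105100 at 0.627 CPM in 1 top R1 library, with the other 4 libraries of each group at 0. The many-block minus single-block level was 0.0289 in 1 middle R3 library, the highest of its group, and -0.394 in 1 top R3 library, the lowest.

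Vigun08g175700 was also picked out because its stage difference in bottom leaves differed from that in middle and top leaves, by -1.56 on the log2 scale (edgeR adjusted p = 0.0418).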

How the results depend on the processing

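The 4 named gene models kept their direction in all 17 alternatives and their call in 16, the exception being a replicate block within the 10 bottom libraries (adjusted p 0.106 to 0.163). That fit called 0 gene models in either direction and 0 at 2-fold (4330 at an unadjusted p under 0.05). The 4 were chosen with stage ranges apart, so leaving out 1 bottom library could not turn their direction. The labels do not say whether replicate numbers pair the stages. Same-numbered bottom libraries deviated from their group means with correlations of -0.159, 0.0643, -0.456, 0.066 and 0.176 between stages. So few values cannot decide it. A replicate block over all 30 libraries called 3179 and put Vigun05g237800 at -4.56, with interaction counts of 2 against top leaves (1 higher, 1 lower) and 0 against both. A replicate block within each stage, chosen after seeing the data, gave 51 against top (20 higher, 31 lower) and 2 against both (1 and 1). The 10 bottom libraries alone gave 1091 (489 rose, 602 fell), 640 at 2-fold (301 and 339). Library size alone gave 986 risen, and 1 lower against middle leaves. DESeq2 size factors gave 22 against top leaves (6 higher, 16 lower), and no filter gave 0 against both. DESeq2 called 4406 in bottom leaves, 6 against middle (4 higher, 2 lower), 470 against top (152 and 318) and 215 against both (56 and 159). Leaving out each bottom library gave 1804 to 3993 calls, 701 to 2046 risen and 1057 to 1947 fallen; at 2-fold 869 to 1954, 380 to 1161 and 417 to 867. Interaction counts then ran from 0 to 305 against top (0 to 61 higher, 0 to 244 lower) and from 0 to 152 against both (0 to 20 and 0 to 132). The Vigun08g175700 interaction ended with no filter (adjusted p = 0.0509) and the replicate blocks (0.0817, and 0.058 within stage). The causes were not tested. At this depth 3 counts over a group equal 0.0371 CPM at R3 and 0.0409 CPM at R1, for counting error only. The drawn-up gene lists gave no value.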
